A study of Mus musculus with 6 samples.

Results

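The genes described here are 36 writers, erasers and readers of lysine acetylation and subunits of the corepressor complexes that carry deacetylases. They were taken by gene name from a table of 54352 genes and not by their values, and all 36 were found and tested. The set holds 11 classical deacetylases (Hdac1 to Hdac11), 13 acetyltransferases and coactivators, 2 bromodomain readers and 10 corepressor subunits. RNA was measured in 6 libraries of mouse embryonic stem cells (mESCs), 3 wild-type (WT) and 3 SIRT1 KO, all grown in serum-free ESGRO medium. By their labels the cells of both genotypes are male and of the 129Sv/J background, and the study describes SIRT1 KO mESCs that had been derived from R1 cells through gene targeting. Both genotypes share the background and the medium, and 1 line stands for each genotype, so p-values measure the spread between replicates and not between independent lines.

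Acetyltransferases move an acetyl group from acetyl-CoA to lysines of histones and other proteins, bromodomain proteins bind the acetylated lysine, and deacetylases take the group off again. SIRT1, the enzyme removed in these cells, is a deacetylase that uses NAD+, whereas Hdac1 to Hdac11 encode the zinc-dependent deacetylases. Class I deacetylases act mainly in the nucleus inside the SIN3, NuRD, CoREST and NCoR complexes. Class IIa enzymes are weak deacetylases that shuttle between nucleus and cytoplasm, class IIb enzymes act largely in the cytoplasm, and Hdac11 alone forms class IV.

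The 3 longer sequences shown here are the 100 bases before the RefSeq start site of called members for which no annotated exon lies in that window and in which a searched motif was found. They are written 5′ to 3′ on the gene's strand, and capitals mark GC boxes (GGGCGG) and CCAAT boxes (CCAAT) read on either strand. Hdac6 and Mta1 hold 2 GC boxes each in this stretch and Sin3b holds 1, and the CCAAT box of Hdac6 lies on the opposite strand.
Hdac6, chrX:7947890-7947989, minus strand, GRCm38.p6: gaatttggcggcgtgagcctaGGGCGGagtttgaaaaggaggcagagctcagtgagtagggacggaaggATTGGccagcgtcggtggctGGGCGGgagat
Sin3b, chr8:72723170-72723269, plus strand, GRCm38.p6: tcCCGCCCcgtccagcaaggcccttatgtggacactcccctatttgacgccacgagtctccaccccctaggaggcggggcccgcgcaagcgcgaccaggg
Mta1, chr12:113098178-113098277, plus strand, GRCm38.p6: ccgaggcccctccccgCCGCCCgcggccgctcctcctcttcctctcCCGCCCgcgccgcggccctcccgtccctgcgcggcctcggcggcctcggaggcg

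The E-box CACGTG, the letters bound by Myc and Max, was searched because the study follows c-Myc as a target of SIRT1. It was found in 4 of the 29 members with a RefSeq promoter (13.8%), against 7.15% of 32851 promoters of the same length of 300 bases. A member counted if any of its windows held the motif (42 windows for the 29 members), whereas the background counts single windows. The shares are thus not in like units, which raises that of the members. The letters CACGTG also hold a CpG, and promoters of members held a median of 23 CpG against 7 for all promoters. The E-box shares were not compared between promoters of like composition, so no excess is read. Of the 4 members with an E-box, Rcor2 was lower in SIRT1 KO mESCs and Hat1, Kat5 and Hdac5 did not pass the test. Holders of the E-box thus fell on both sides of the threshold. The 30 bases around the E-box are printed for the 3 members in which it lies before the RefSeq start, with the E-box in capitals. In Rcor2 and Hat1 the stretch lies past the start that GENCODE gives for the gene.
Rcor2, chr19:7267352-7267381, plus strand, GRCm38.p6: tgtgagctgcagCACGTGccccaggcggcg
Hat1, chr2:71389067-71389096, plus strand, GRCm38.p6: tgagggcatcctCACGTGcggtggctaggc
Kat5, chr19:5610263-5610292, minus strand, GRCm38.p6: cccggtgggcgtCACGTGacagactcggcg

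GC boxes stood in the promoters of 23 of the 29 members (79.3%), against 35.7% of all promoters. The promoters of members were also richer in G and C, with a median of 62.2% against 52.7%, and held a median of 23 CpG against 7. CCAAT boxes were found in 14 of the 29 (48.3%, against 37.4% of all promoters). The TATA box TATAAA was found in Hdac8, Hdac9 and Sin3b (10.3%, against 13.6%), and the CRE TGACGTCA in no member (against 1.79%). As for the E-box, these motif shares are per gene for members and per window for all promoters, which raises those of the members. Both strands were searched, no motif lies inside another, and a match describes letters in the window and not a bound site.

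Sirt1 was lower in every SIRT1 KO library. It measured 15.52, 15.54 and 15.49 in the WT libraries and 13.71, 13.72 and 13.79 in the SIRT1 KO libraries (log2 value, replicates 1 to 3), a log2 fold change of -1.78 (limma, SE 0.0487, adjusted p = 1.16e-07). Values are log2 expression values that the authors made from normalized read counts by a transformation that is not given. A log2 fold change is SIRT1 KO minus WT throughout, and multiples of the WT level are on that scale. A gene was called higher or lower at an adjusted p under 0.01 in limma. All 10 mESC markers were high, with a summed log2 level of 21.19 to 21.26 in WT and 21.2 to 21.24 in SIRT1 KO mESCs. The summed level of 4 neural progenitor markers was 13.96 to 14.15 in WT and 14.67 to 14.71 in SIRT1 KO. That of 6 primitive endoderm markers was 10.74 to 10.99 and 11.1 to 11.3, and that of 6 fibroblast markers (2 of them at 0) 10.86 to 11.05 and 10.38 to 10.5. Sums are of linear values and mostly reflect the highest gene of a set. Over the 6 libraries the highest neural progenitor marker averaged 14.09 and the lowest 0.36, and the highest fibroblast marker averaged 10.58. A shift of a sum therefore does not show that the whole set moved. Trophectoderm markers (14.19 to 14.27 and 14.19 to 14.29) and mesoderm markers (10.62 to 10.76 and 10.52 to 10.64) overlapped between genotypes. The part of these cell types in the results below was not tested, and fewer cells of a type cannot be told apart from less RNA per cell.

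Of the 36 members, 7 were higher in SIRT1 KO mESCs, 2 were lower and 27 did not pass the test. The higher members were the deacetylases Hdac6, Hdac8, Hdac10 and Hdac11, the reader Brd2 and the corepressor subunits Sin3b and Mta1. The lower members were Hdac7 and Rcor2. The called share of 25.0% lay near the background of 23.7% for tested protein-coding genes (12.4% higher, 11.3% lower) and above that of 16.6% for all 26571 tested genes (8.47% higher, 8.12% lower), so the count as a whole was not a result about the members. The values of the genotypes did not overlap for 25 of 36 members, against 55.9% of protein-coding genes and 44.7% of all tested genes. The median log2 fold change of the members was 0.10, against -0.01 over all tested genes. With each library centred on its median, all fold changes rose by 0.0562 and 3099 genes were higher and 1718 lower over the whole table, against 2251 and 2157 as deposited, while 8 members were higher and 2 lower.

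**Figure D1:**
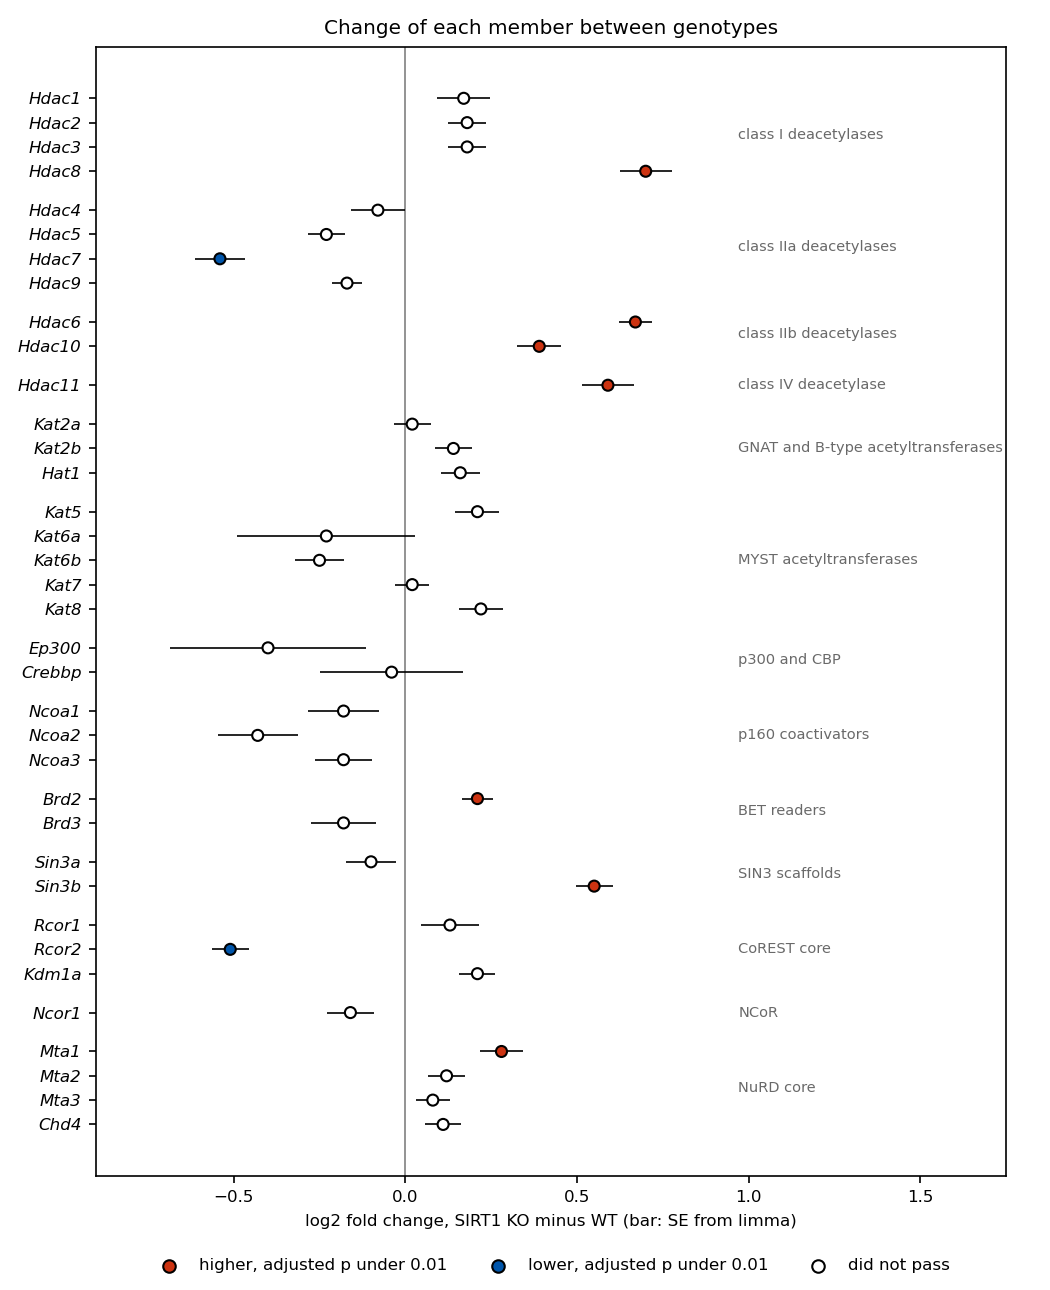
Log2 fold change (SIRT1 KO minus WT, horizontal axis) of each of the 36 members by family, with bars for the SE from limma. Red points are the 7 members called higher and blue points the 2 called lower, and no acetyltransferase or coactivator is coloured.

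All called members but Brd2 were deacetylases or corepressor subunits. Among the 11 deacetylases, 4 were higher and 1 was lower (45.5%, median log2 fold change 0.18). Among the 10 corepressor subunits, 2 were higher and 1 was lower (30.0%, median 0.11). The background was 23.7% of tested protein-coding genes and 16.6% of all tested genes, and the share of corepressor subunits lay near the former. The calls of Hdac10 and Mta1 were lost under some alternatives. None of the 13 acetyltransferases and coactivators passed the test, and 7 of the 13 did not overlap between genotypes, a share near the 55.9% of tested protein-coding genes (median -0.04, from -0.43 to 0.22). Of these 13, 1 was called under an alternative that kept the threshold, which was Ncoa2 without WT replicate 1 or without WT replicate 2. Without WT replicate 2 the median was 0.13 for deacetylases, 0.11 for corepressor subunits and 0.06 for acetyltransferases and coactivators. Whether the families differ from each other was not tested.

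Among class I deacetylases, Hdac8 was higher and Hdac1, Hdac2 and Hdac3 did not pass. HDAC8 acts outside the large corepressor complexes and is known for deacetylating the cohesin subunit SMC3. Hdac8 (ENSMUSG00000067567.12, chromosome X, 102284639 to 102505359, minus strand, GRCm38) measured 10.26, 10.14 and 10.32 in WT replicates 1 to 3 and 10.89, 10.99 and 10.95 in SIRT1 KO replicates 1 to 3 (log2 value). The groups were separated by more than the spread within either, and the log2 fold change was 0.70 (limma, SE 0.0754, adjusted p = 0.000186), or 1.63 times the WT level.

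HDAC1 and HDAC2 are the catalytic subunits of the SIN3, NuRD and CoREST complexes, and HDAC3 is that of NCoR. Their log2 fold changes were alike, at 0.17 (SE 0.0772, adjusted p = 0.134) for Hdac1, 0.18 (SE 0.056, adjusted p = 0.044) for Hdac2 and 0.18 (SE 0.0549, adjusted p = 0.0396) for Hdac3, all from limma. Hdac1 measured 16.01, 16.26 and 15.96 in the WT libraries and 16.29, 16.2 and 16.25 in the SIRT1 KO libraries, so that only WT replicate 2 lay within the SIRT1 KO range. Without WT replicate 2, Hdac1 passed at a log2 fold change of 0.26 (adjusted p = 0.000857 from limma). Hdac2 and Hdac3 did not overlap between genotypes and passed under no alternative at the threshold of 0.01, with adjusted p from 0.0166 to 0.153 and from 0.0151 to 0.138.

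Class IIa deacetylases, which bind MEF2 factors, all had negative log2 fold changes, and only Hdac7 passed. Hdac7 (ENSMUSG00000022475.19, chromosome 15, 97792664 to 97844502, minus strand) measured 12.21, 12.46 and 12.31 in the WT libraries and 11.8, 11.75 and 11.81 in the SIRT1 KO libraries (log2 value, replicates 1 to 3). Every SIRT1 KO value lay below every WT value. The log2 fold change was -0.54 (limma, SE 0.0739, adjusted p = 0.000755), leaving 0.688 of the WT level. Hdac5 had a log2 fold change of -0.23 (limma, SE 0.0535, adjusted p = 0.0121), just short of the threshold, and passed with the filter at a mean of 100 (adjusted p = 0.00828), with quantile normalization (0.00701) and without WT replicate 2 (0.0045), while its adjusted p reached 0.0703 over the alternatives. Hdac9 was the lowest of the 36 members, averaging 5.27 ± 0.0468 over the WT libraries and 5.1 ± 0.0428 over the SIRT1 KO libraries (log2 value, SD, n = 3 for both), and Hdac4 had a log2 fold change of -0.08 (SE 0.0795) that became 0.01 without WT replicate 2.

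Both class IIb deacetylases were higher. HDAC6 deacetylates tubulin in the cytoplasm and HDAC10 removes acetyl groups from polyamines. Hdac6 (ENSMUSG00000031161.15, chromosome X, 7930120 to 7947889, minus strand), whose proximal promoter is printed above, measured 15.16, 15.21 and 15.25 in the WT libraries and 15.86, 15.87 and 15.89 in the SIRT1 KO libraries (log2 value, replicates 1 to 3). The gap between the groups was wide beside a range of at most 0.1 within each, and Hdac6 had the smallest adjusted p of the members, with a log2 fold change of 0.67 (limma, SE 0.0472, adjusted p = 1.8e-05). The level in SIRT1 KO mESCs was 1.59 times that in WT.

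Hdac10 (ENSMUSG00000062906.12, chromosome 15, 89123307 to 89128700, minus strand) measured 11.26, 11.16 and 11.24 in the WT libraries and 11.57, 11.58 and 11.67 in the SIRT1 KO libraries (log2 value, replicates 1 to 3). The groups did not overlap, and the log2 fold change was 0.39 (limma, SE 0.0647, adjusted p = 0.00229). The call was lost without SIRT1 KO replicate 2 or without SIRT1 KO replicate 3, where the adjusted p reached 0.0162, against a lowest value of 0.00117 over the alternatives.

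Hdac11, the class IV enzyme, known for removing fatty acyl groups from lysine, was higher as well. Hdac11 (ENSMUSG00000034245.10, chromosome 6, 91156665 to 91174692, plus strand) measured 10.47, 10.38 and 10.41 in the WT libraries and 11.09, 10.9 and 11.03 in the SIRT1 KO libraries (log2 value, replicates 1 to 3). The log2 fold change of 0.59 (limma, SE 0.0748, adjusted p = 0.000499) was 1.50 times the WT level. Of the exons of Hdac11, 15.43% are shared with Gm44002 on the opposite strand, which was at 0 in all libraries, and 2.49% with the antisense gene Gm14573 (mean log2 value 4.28, log2 fold change 0.05). No source used here says if the counting separated the strands.

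**Figure D2:**
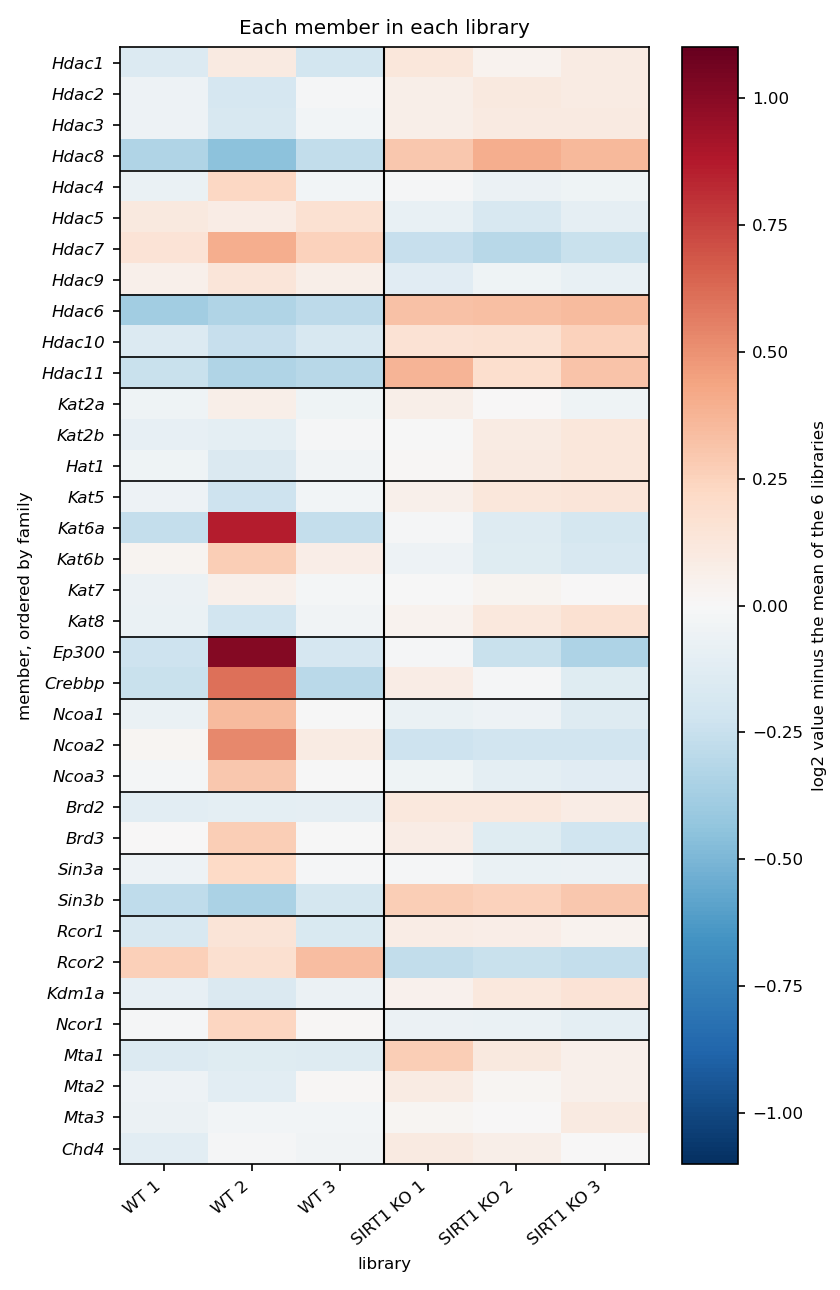
Log2 value of each member (rows, by family) in each of the 6 libraries (columns), relative to the mean of the 6. Hdac6, Hdac8, Hdac11 and Sin3b are high in all 3 SIRT1 KO libraries, Hdac7 and Rcor2 are low in them, and Ep300, Kat6a and Crebbp are highest in WT replicate 2.

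No acetyltransferase passed. KAT2A and KAT2B are the alternative catalytic subunits of the SAGA and ATAC coactivator complexes, and HAT1 acetylates newly made histone H4 before it reaches chromatin. Kat2a had a log2 fold change of 0.02 (SE 0.0545), Kat2b of 0.14 (SE 0.0545) and Hat1 of 0.16 (SE 0.0568), with adjusted p of 0.86, 0.0847 and 0.0679 from limma.

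The MYST acetyltransferases had no common sign, and none passed. Kat5, the catalytic subunit of NuA4-TIP60, had a log2 fold change of 0.21 (limma, SE 0.064, adjusted p = 0.0397). Kat8, which acetylates histone H4 in the MSL and NSL complexes, had one of 0.22 (SE 0.063, adjusted p = 0.0321), and Kat7, the HBO1 enzyme, one of 0.02 (SE 0.0499, adjusted p = 0.792). Kat6b, the MORF enzyme, averaged 16.9 ± 0.127 over the WT libraries and 16.66 ± 0.0623 over the SIRT1 KO libraries (log2 value, SD, n = 3), a log2 fold change of -0.25 (limma, SE 0.0705, adjusted p = 0.0297). The groups did not overlap for Kat5, Kat6b and Kat8. Kat5 shares 12.14% of its exons with Rnaseh2c on the opposite strand (log2 fold change -0.06), and Kat8 shares 4.22% with Prss8 (log2 fold change 0.76, adjusted p = 0.000437 from limma).

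The values of Kat6a, Ep300 and Crebbp rested on 1 library. KAT6A is the MOZ enzyme, and p300 and CBP are the broad acetyltransferases that enhancer-bound factors recruit. Ep300 measured 14.09, 15.33 and 14.14 in the WT libraries and 14.31, 14.08 and 13.98 in the SIRT1 KO libraries (log2 value, replicates 1 to 3). Kat6a measured 14.22, 15.34 and 14.22 in the WT libraries and 14.47, 14.34 and 14.29 in the SIRT1 KO libraries. Crebbp measured 14.75, 15.6 and 14.7 in the WT libraries and 15.08, 14.98 and 14.86 in the SIRT1 KO libraries. In each of the 3 genes WT replicate 2 stood far above the other WT libraries, which lay close together.

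The log2 fold changes were -0.40 (SE 0.284) for Ep300, -0.23 (SE 0.259) for Kat6a and -0.04 (SE 0.208) for Crebbp, with adjusted p of 0.341, 0.56 and 0.899 from limma. Without WT replicate 2 all 3 changed sign, to 0.01 (SE 0.082), 0.14 (SE 0.0566) and 0.25 (SE 0.0613), with adjusted p of 0.967, 0.0839 and 0.0121. No direction can be given for these genes.

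The p160 coactivators, partners of p300 and CBP at nuclear receptors, all had negative log2 fold changes, and none passed. Ncoa2 measured 14.02, 14.53 and 14.09 in the WT libraries and 13.77, 13.79 and 13.79 in the SIRT1 KO libraries (log2 value, replicates 1 to 3). The SIRT1 KO libraries lay within 0.02 of each other and below every WT library, whereas WT replicate 2 stood apart from the other WT libraries. The log2 fold change was -0.43 (limma, SE 0.116, adjusted p = 0.0233), and without WT replicate 2 it was smaller but passed, at -0.27 (SE 0.0448, adjusted p = 0.00118). Ncoa1 and Ncoa3 were each at -0.18 (SE 0.103 and 0.0842, adjusted p = 0.233 and 0.147 from limma), and at -0.05 and -0.08 without WT replicate 2.

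BRD2 and BRD3 are bromodomain proteins of the BET family that bind acetylated histones. Brd2 measured 16.75, 16.76 and 16.77 in the WT libraries and 16.98, 16.98 and 16.95 in the SIRT1 KO libraries (log2 value, replicates 1 to 3). The shift was small and even, with a log2 fold change of 0.21 (limma, SE 0.0444, adjusted p = 0.00766). The call was lost under 7 of 14 alternatives, among them the replicate block (adjusted p = 0.0245), quantile normalization and leaving out any library but WT replicate 2, with adjusted p from 0.00111 to 0.0547 and a log2 fold change from 0.14 to 0.27. Brd2 (ENSMUSG00000024335.20, chromosome 17, 34112023 to 34122634, minus strand) shares 4.6% of its exons with H2-DMa on the opposite strand (log2 fold change -0.24) and 5.18% with the antisense gene CR974462.3. Brd3 did not pass, at a log2 fold change of -0.18 (limma, SE 0.0959, adjusted p = 0.199).

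SIN3A and SIN3B are alternative scaffolds that bring HDAC1 and HDAC2 to repressed genes. Sin3b (ENSMUSG00000031622.16, chromosome 8, 72723285 to 72758201, plus strand) measured 14.92, 14.85 and 15 in the WT libraries and 15.47, 15.45 and 15.49 in the SIRT1 KO libraries (log2 value, replicates 1 to 3). All SIRT1 KO values lay above all WT values, and the log2 fold change was 0.55 (limma, SE 0.0538, adjusted p = 0.000114), or 1.46 times the WT level. Sin3a averaged 16.24 ± 0.15 over the WT libraries and 16.14 ± 0.0323 over the SIRT1 KO libraries (log2 value, SD, n = 3), with a log2 fold change of -0.10 (limma, SE 0.074, adjusted p = 0.356).

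The surroundings of Sin3b were raised too. Of 95 other tested protein-coding genes within 2.5 Mb of Sin3b, 51 were higher and 2 were lower, and their median log2 fold change was 0.37. Sin3b lay 0.18 above that median. Over chromosome 8 as a whole, 244 of 841 tested protein-coding genes were higher and 67 lower (median 0.10). The part of this stretch in the change of Sin3b was not tested. Ncoa2 lay among neighbours with a median of -0.27 (10 genes, 2 higher, 5 lower) and Mta1 among neighbours with a median of 0.10 (53 genes, 13 higher, 5 lower).

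For the other called members the median change of the neighbours within 2.5 Mb lay between -0.09 and 0.02, while single neighbours went both ways. The median log2 fold change of the neighbours was -0.06 around Hdac6, -0.01 around Hdac8, -0.09 around Hdac11, 0.01 around Hdac10, -0.00 around Hdac7, 0.02 around Rcor2 and -0.02 around Brd2. Of 51 neighbours of Hdac6, 11 were higher and 11 lower, and of 44 neighbours of Hdac8, 5 were higher and 5 lower. Around Hdac11 these counts were 4 and 3 of 40, around Hdac10 4 and 4 of 39, around Hdac7 4 and 9 of 71, around Rcor2 13 and 9 of 144 and around Brd2 11 and 12 of 169. Over all tested protein-coding genes, 12.4% were higher and 11.3% lower, and around Hdac6 both shares lay above these. Hdac6 and Hdac8, both on chromosome X, lay 0.73 and 0.71 above the medians of their neighbours. Over the X chromosome, 75 of 586 tested protein-coding genes were higher and 79 lower, with a median of -0.04.

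RCOR1 and RCOR2 are alternative CoREST proteins that join the demethylase KDM1A (LSD1) to HDAC1 and HDAC2. Rcor2 (ENSMUSG00000024968.14, chromosome 19, 7267325 to 7275225, plus strand) measured 16.8, 16.72 and 16.88 in the WT libraries and 16.27, 16.3 and 16.28 in the SIRT1 KO libraries (log2 value, replicates 1 to 3). The SIRT1 KO libraries lay within 0.03 of each other, below every WT library. The log2 fold change was -0.51 (limma, SE 0.054, adjusted p = 0.000169), leaving 0.701 of the WT level.

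Rcor1 measured 13.85, 14.17 and 13.86 in the WT libraries and 14.11, 14.1 and 14.06 in the SIRT1 KO libraries (log2 value, replicates 1 to 3), and as for Hdac1 WT replicate 2 alone brought the groups to overlap. Its log2 fold change was 0.13 (limma, SE 0.0854, adjusted p = 0.291) and passed without that library at 0.24 (adjusted p = 0.00241). Kdm1a had a log2 fold change of 0.21 (limma, SE 0.0523, adjusted p = 0.0172), with no overlap between genotypes, and passed without WT replicate 2 (0.18, adjusted p = 0.00725) and with each library centred on its median (0.26, adjusted p = 0.00758).

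NCOR1 is the scaffold that holds and activates HDAC3. Ncor1 averaged 17.14 ± 0.133 over the WT libraries and 16.98 ± 0.0247 over the SIRT1 KO libraries (log2 value, SD, n = 3), a log2 fold change of -0.16 (limma, SE 0.0688, adjusted p = 0.115). Without WT replicate 2 it was -0.09.

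The NuRD complex pairs HDAC1 and HDAC2 with the remodeller CHD4 and an MTA protein, and all 4 of its members here had positive log2 fold changes with no overlap between genotypes. Of tested protein-coding genes, 55.9% did not overlap either. The 9 further NuRD subunits described below had 4 positive and 5 negative log2 fold changes (median -0.07), so no direction of the complex is read. Of the 4 members only Mta1 passed. Mta1 (ENSMUSG00000021144.14, chromosome 12, 113098278 to 113137206, plus strand) measured 15.03, 15.05 and 15.04 in the WT libraries and 15.45, 15.29 and 15.24 in the SIRT1 KO libraries (log2 value, replicates 1 to 3). The WT libraries lay within 0.02 of each other and the SIRT1 KO libraries were more spread. The log2 fold change was 0.28 (limma, SE 0.0623, adjusted p = 0.00903), and the call was lost under 9 of 14 alternatives, among them the replicate block (adjusted p = 0.0122), no filter and leaving out any library other than WT replicate 2, with adjusted p from 0.00285 to 0.0323. Mta2 (0.12, SE 0.0527), Mta3 (0.08, SE 0.05) and Chd4 (0.11, SE 0.0522) did not pass, with adjusted p of 0.139, 0.25 and 0.161 from limma. With quantile normalization Chd4 was at -0.03.

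Paralogues were then compared within each library, since a difference between genes of 1 library does not depend on how libraries were scaled. Of 20 pairs, 12 did not overlap between genotypes (exact permutation test, two-sided, p = 0.1 for each, the smallest that 3 against 3 libraries allow, and 0.167 adjusted over the 20 pairs), so no pair could reach the threshold. Single protein-coding genes did not overlap in 55.9% of cases, and the share among other pairs of genes was not computed, so nothing is read from the count. These differences are of log2 values not divided by gene length, so only their change between genotypes is read.

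The SIN3 and CoREST pairs had the changes farthest from 0, with an order that turned without WT replicate 2. Sin3a minus Sin3b was 1.21, 1.57 and 1.17 in the WT libraries and 0.71, 0.66 and 0.64 in the SIRT1 KO libraries (log2 difference, replicates 1 to 3), a change of -0.65 (SE 0.126). Rcor1 minus Rcor2 was -2.95, -2.55 and -3.02 in the WT libraries and -2.15, -2.2 and -2.22 in the SIRT1 KO libraries, a change of 0.64 (SE 0.148). In both pairs the spread was larger in WT, where replicate 2 stood apart, and without it the changes were -0.52 and 0.79.

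In class IIa, Hdac7 was lower beside its paralogues in SIRT1 KO mESCs. Hdac4 minus Hdac7 was 1.72, 1.78 and 1.66 in the WT libraries and 2.19, 2.19 and 2.15 in the SIRT1 KO libraries (change 0.46, SE 0.0364). The change was 0.31 (SE 0.0844) for Hdac5 minus Hdac7 and -0.37 (SE 0.065) for Hdac7 minus Hdac9, both without overlap. The pairs of Hdac4, Hdac5 and Hdac9 with each other overlapped between genotypes. Hdac6 minus Hdac10 was 3.9, 4.05 and 4 in the WT libraries and 4.29, 4.29 and 4.23 in the SIRT1 KO libraries (change 0.28, SE 0.0476), without overlap.

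Among readers and coactivators, Brd2 minus Brd3 was 1.64, 1.41 and 1.68 in the WT libraries and 1.8, 2.02 and 2.09 in the SIRT1 KO libraries (change 0.39, SE 0.121). Ep300 minus Crebbp was -0.65, -0.28 and -0.56 in the WT libraries and -0.77, -0.9 and -0.88 in the SIRT1 KO libraries (change -0.35, SE 0.12, and -0.24 without WT replicate 2). The groups did not overlap for this pair, although they did for Ep300 and for Crebbp taken singly. The change was 0.25 (SE 0.0413) for Ncoa1 minus Ncoa2 and -0.25 (SE 0.0627) for Ncoa2 minus Ncoa3, both without overlap, while Ncoa1 minus Ncoa3 was -3.75 in both genotypes (change 0.00, SE 0.0394). For Mta1 minus Mta2 it was 0.17 (SE 0.0677) and for Mta1 minus Mta3 0.20 (SE 0.0875), without overlap. Hdac1 minus Hdac2 (-0.00, SE 0.146), Kat6a minus Kat6b (0.02, SE 0.302), Kat2a minus Kat2b (-0.13, SE 0.0917) and Mta2 minus Mta3 (0.03, SE 0.0535) overlapped, and for the pair Kat6a and Kat6b the SE is wide.

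**Figure D3:**
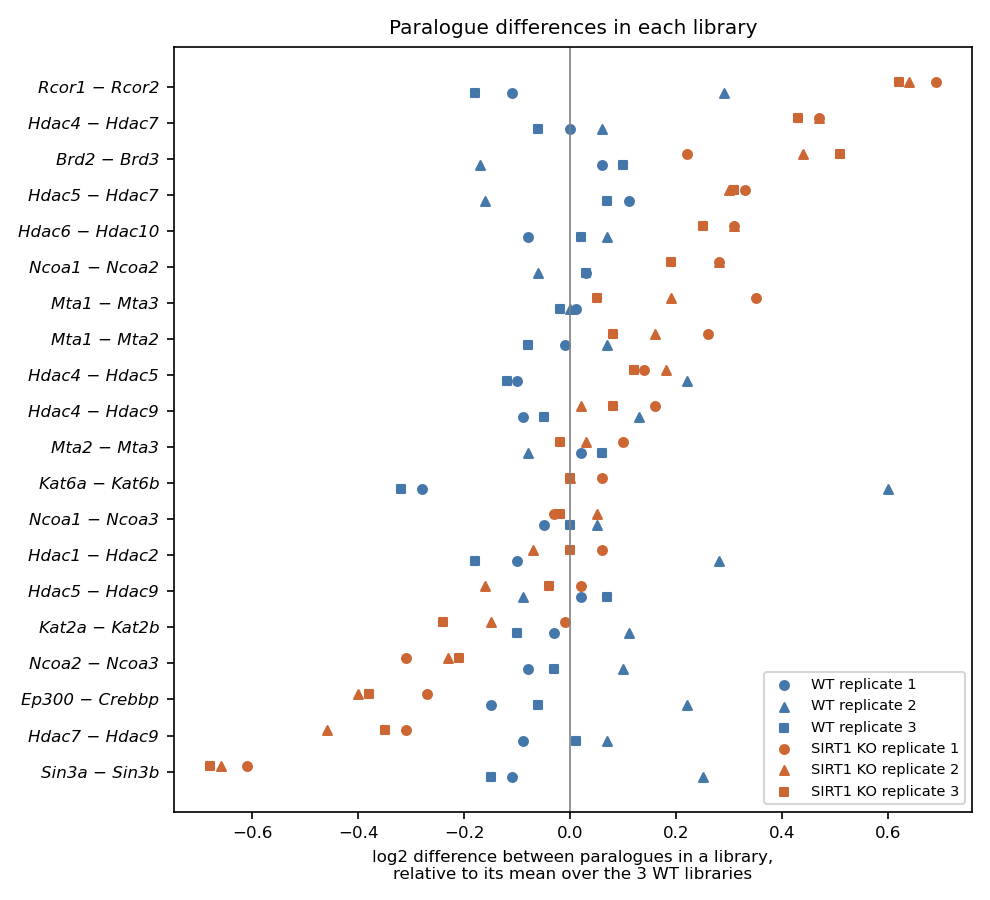
Log2 difference between paralogues in each library, relative to the mean of that difference over the 3 WT libraries (horizontal axis), for 20 pairs. Rcor1 minus Rcor2 (change 0.64) and Sin3a minus Sin3b (change -0.65) lie farthest out, and the triangles of WT replicate 2 stand apart from the other WT libraries in several pairs.

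WT replicate 2 stood apart from the other WT libraries for a group of members. The deviation of a member there, taken as its log2 value in WT replicate 2 minus the mean of the other WT libraries, was 1.21 for Ep300, 1.12 for Kat6a and 0.88 for Crebbp, which lay at the 99.8, 99.7 and 99.5 percentiles of all tested genes. Over the 36 members its root mean square was 0.36, against 0.21 over all tested genes, and 13 members lay over 0.2, against 10.2% of all tested genes.

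The deviation went with gene length. Across the 36 members it correlated with the summed length of annotated exons (Spearman's rho 0.67), as it did across 8426 protein-coding genes with a log2 value above 12 (0.60). In the SIRT1 KO libraries, with the deviation taken likewise within that genotype, the correlation across members was 0.36 for replicate 1, -0.09 for replicate 2 and -0.49 for replicate 3 (0.09, 0.12 and -0.21 across the 8426 genes). These are correlations across genes within a library, which share its preparation and depth. The 11 members with more than 8 kb of exons had a median deviation of 0.28 (from -0.05 to 1.21, 10 of 11 positive), and the other 25 had one of -0.06 (from -0.18 to 0.32). The median log2 fold change of the long members was -0.18 with WT replicate 2 and -0.05 without it, and that of the others 0.17 and 0.13. What set WT replicate 2 apart was not tested.

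**Figure D4:**
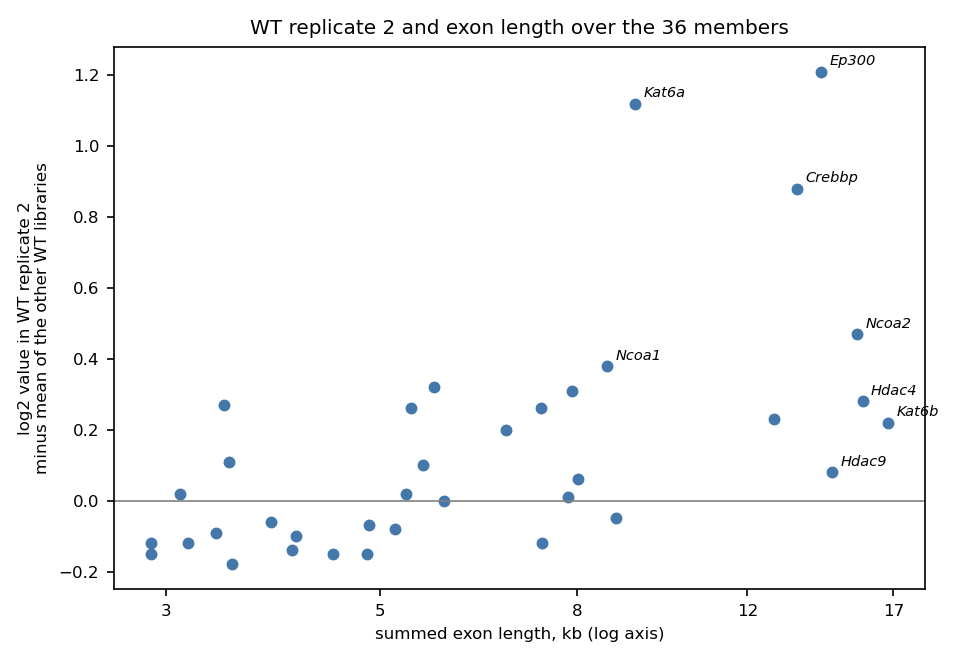
Deviation of each of the 36 members in WT replicate 2 (log2 value minus the mean of the other WT libraries, vertical axis) against the summed exon length in kb (log axis). Ep300, Kat6a and Crebbp stand highest, at 1.21, 1.12 and 0.88, and most members under 5 kb lie below 0.

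The same library carried other genes of this machinery. Among genes on the lists described below, Gatad2b deviated there by 1.17, Brpf3 by 1.15, Trerf1 by 0.98, Baz2a by 0.95 and Ep400 by 0.78 (log2). None of these passed the test, and their log2 fold changes moved towards 0 or above it without that library, from -0.34 to 0.05 for Gatad2b and from -0.40 to -0.09 for Baz2a.

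Divided by exon length, levels of different members can be compared. Per kb, Rcor2 was the highest member in WT mESCs, at a log2 level of 15.14, and ranked 5 in SIRT1 KO mESCs at 14.63. Hat1 followed at 14.99 in WT and ranked 1 in SIRT1 KO mESCs at 15.15, ahead of Chd4 (14.87 in WT, 14.98 in SIRT1 KO), Mta2 (14.54 and 14.66), Kdm1a (14.43 and 14.64) and Hdac1 (14.29 and 14.46). The lowest in WT were Hdac9 (1.40 and 1.22), Hdac8 (7.96 and 8.67), Hdac11 (8.48 and 9.06), Hdac10 (9.46 and 9.85) and Hdac7 (9.57 and 9.03). Of the deacetylases called, Hdac6 alone lay in the middle of the order (12.66 and 13.34), and the other 4 were among the 5 lowest members in WT, whereas in SIRT1 KO mESCs Hdac10 lay above Ncoa1 (9.63) and Ncoa2 (9.82). Of 35 neighbouring pairs in the order, 16 in WT and 12 in SIRT1 KO mESCs were closer than the larger SD of the pair, so their order is not settled. The length used is that of all annotated exons and may exceed that of the transcripts present.

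**Figure D5:**
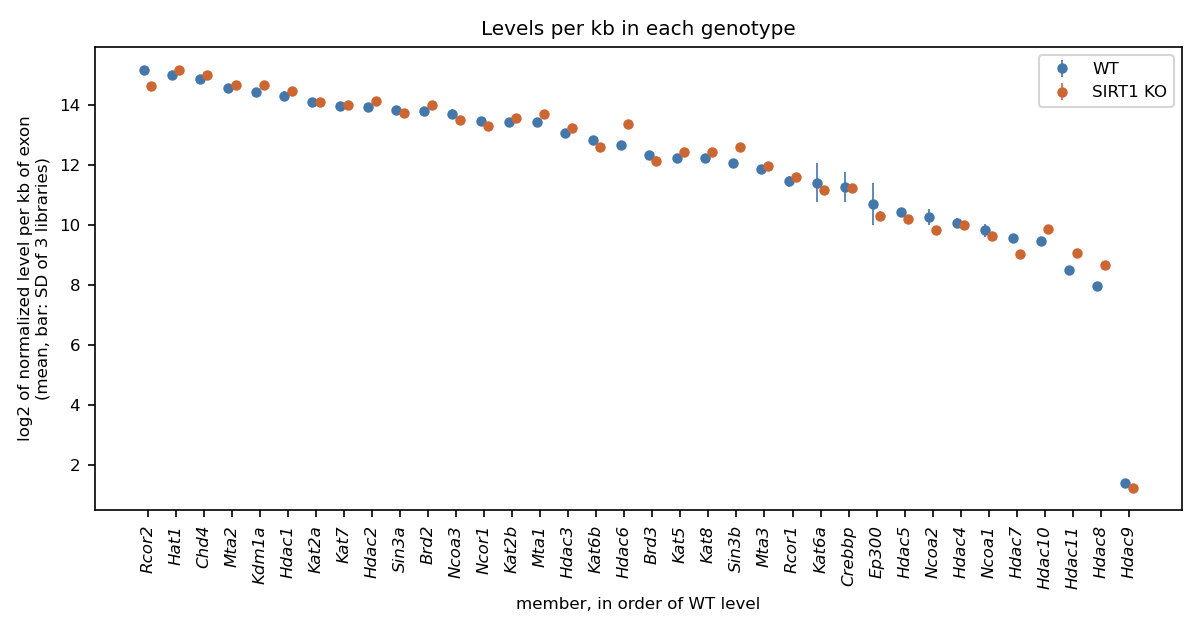
Log2 level per kb of exon for each member in WT and SIRT1 KO mESCs (points are means, bars SD of 3 libraries), in order of the WT level. Rcor2 leads in WT at 15.14 and Hat1 in SIRT1 KO mESCs at 15.15, and Hdac9 lies far below the rest at 1.40 and 1.22.

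The partners of these enzymes were read from 12 lists of 120 further genes. Of these 120, 13 were higher, 14 were lower and 93 did not pass (22.5%, near the background of 23.7%), with a median log2 fold change of -0.03. Without WT replicate 2 that median was 0.01. Of single lists, the median then turned from -0.07 to 0.05 for NuRD subunits and from -0.06 to 0.04 for MOZ, HBO1, MSL and NSL subunits. The medians of all other lists kept their sign. Of the 27 called genes, 9 kept their call under all 14 alternatives that kept the threshold, which were Acss2, Rbbp4, Rbbp7, Sap30l, Ing2, Jade2, Brd7, Mllt3 and Dpf3. The other 18 lost it in at least 1, and all 18 did so without SIRT1 KO replicate 3.

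The largest change on any list was in acetyl-CoA supply. Acss2, which makes acetyl-CoA from acetate in the cytoplasm and nucleus, measured 12.33, 12.33 and 12.54 in the WT libraries and 13.6, 13.53 and 13.67 in the SIRT1 KO libraries (log2 value, replicates 1 to 3). The groups were far apart, with a log2 fold change of 1.20 (limma, SE 0.0732, adjusted p = 8.95e-06). The other 3 genes of the list did not pass, at 0.17 for Acly, which makes acetyl-CoA from citrate, 0.06 for the mitochondrial Acss1 and 0.10 for the citrate carrier Slc25a1.

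The histone chaperones Rbbp4 and Rbbp7, shared by SIN3 and NuRD, moved apart. Rbbp4 measured 17.14, 17.15 and 17.16 in the WT libraries and 17.57, 17.58 and 17.59 in the SIRT1 KO libraries, a log2 fold change of 0.43 (limma, SE 0.0446, adjusted p = 0.000161). Rbbp7 measured 17.64, 17.53 and 17.65 in the WT libraries and 16.93, 16.91 and 16.95 in the SIRT1 KO libraries, a log2 fold change of -0.68 (limma, SE 0.0511, adjusted p = 2.69e-05). In WT libraries the value of Rbbp7 was the higher of the pair and in SIRT1 KO libraries that of Rbbp4, on a scale that is not per length.

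Of 15 other SIN3 subunits, 3 were higher and 2 lower (33.3% called, median -0.05). The background was 23.7% of tested protein-coding genes and 16.6% of all tested genes. Sap30 (0.46, adjusted p = 0.00212) and its paralogue Sap30l (-0.48, adjusted p = 0.00116) changed in opposite directions, and Ing2, whose PHD finger binds methylated histone H3, was higher (0.49, adjusted p = 0.000235 from limma). Of 9 further NuRD subunits, 2 were higher and 2 lower (44.4% called, median -0.07). Besides Rbbp4 and Rbbp7 these were the linker Gatad2a (0.33, adjusted p = 0.00887, and 0.0115 with the replicate block) and the remodeller Chd3, an alternative to Chd4 (-0.39, adjusted p = 0.00346 from limma). The SIN3 and NuRD lists are short and share Rbbp4 and Rbbp7, so nothing is read from their called shares. None of 3 MiDAC subunits passed in limma (median -0.24). Of these, Trerf1 (-0.73, adjusted p = 0.0456) passed in limma without WT replicate 2 (-0.41, adjusted p = 0.00406).

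Among acetyltransferase complexes, 16.7% of SAGA and ATAC, 11.8% of NuA4-TIP60 and 17.6% of MOZ, HBO1, MSL and NSL subunits were called. The background was 16.6% of all tested genes and 23.7% of tested protein-coding genes, so nothing is read from these counts. Of 18 SAGA and ATAC subunits, Zzz3 was higher (0.31, adjusted p = 0.00288) and Taf5l (-0.30, adjusted p = 0.00389) and Atxn7 (-0.41, adjusted p = 0.00771) were lower in limma (median 0.01). With each library centred on its median, the list had 2 higher and 0 lower genes, and Taf5l and Atxn7 no longer passed in limma (adjusted p = 0.0134 and 0.0151). Of 17 NuA4-TIP60 subunits, Morf4l2 (0.43, adjusted p = 0.00219) and the bromodomain subunit Brd8 (0.23, adjusted p = 0.00874, and 0.0193 with the replicate block) were higher and 15 did not pass in limma (median 0.11). Of 17 MOZ, HBO1, MSL and NSL subunits, Jade2, a scaffold of the HBO1 complex, was lower (-0.78, adjusted p = 4.12e-05), as was the MSL scaffold Msl1 (-0.38, adjusted p = 0.0014), and Kansl3 was higher (0.28, adjusted p = 0.0027 from limma). The median of that list was -0.06.

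Of 7 other lysine acetyltransferases, 1 was higher and 2 were lower (42.9% called, median -0.15). The background was 23.7% of tested protein-coding genes and 16.6% of all tested genes. Taf1, the largest subunit of TFIID, was higher (0.23, adjusted p = 0.00549 from limma), whereas the circadian factor Clock (-0.40, adjusted p = 0.00163) and the cohesin acetyltransferase Esco2 (-0.28, adjusted p = 0.00655) were lower. With the replicate block Taf1 (adjusted p = 0.0146) and Esco2 (adjusted p = 0.0106) no longer passed in limma. Of 17 other readers of acetyl-lysine, 2 were higher and 5 lower (41.2% called, median -0.18). Brd7, a bromodomain subunit of a SWI/SNF complex, was higher (0.59, adjusted p = 8.59e-05 from limma), as was the remodeller subunit Baz1a (0.51, adjusted p = 0.00136). Mllt3, a YEATS-domain reader (-0.60, adjusted p = 0.000402), and Phip (-0.49, adjusted p = 0.00161) were lower in limma. None of 4 inhibitors of histone acetylation, Anp32a, Anp32b, Anp32e and Set, passed, with a median of 0.12.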

How the data were processed

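RNA-seq was analysed in 6 libraries, 3 WT and 3 SIRT1 KO. The deposited values are log2 expression values that the authors made from featureCounts counts of reads aligned with STAR to GRCm38 with the Gencode vM18 annotation and normalized between libraries with DESeq2. Which log2 transformation was used and whether reads were counted by strand are not given in the sources used here, and fold changes of low genes may be understated. The study's design text names a ribosomal RNA depletion kit and the labels a poly(A) preparation. The table holds no counts, so the depth behind each value is unknown. Of 54352 genes, 16649 were at 0 in all libraries and 26571 whose mean linear value reached 10 were tested in R 4.3.3 with limma 3.58.1 (mean-variance trend, Benjamini-Hochberg adjustment over all tested genes, adjusted p under 0.01). Paralogue differences were compared by exact permutation tests (Python 3.11.15, scipy 1.17.1).

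Gene positions, exons and overlaps were taken from GENCODE vM21 on GRCm38, in which 53644 names matched 1 gene, and promoters (250 bases before to 50 after a start, 42 windows of 29 members) from RefSeq on GRCm38.p6. The members and gene lists were chosen with earlier results of these data known. All 36 members are named, and of each list up to 2 genes with the smallest adjusted p in each direction. Of the listed names, Fam60a and Mideas were read as Sinhcaf and Elmsan1. Deviations from the genotype mean correlated at 0.242, 0.149 and 0.316 between libraries that share a replicate number and at 0.0838 or less between others, so the numbers were read as pairs from the data alone, and the block was an alternative. Other alternatives were no filter or a mean of at least 100, a pseudocount of 10, median centring, quantile normalization, no trend, robust moderation, a threshold of 0.05 and leaving out each library. The steps were tested on simulated data. For the limma fit these data had independent noise in each gene and library, with no library that stood apart and no paired replicates. That test therefore does not cover features such as those of WT replicate 2. Splicing was not analysed, and the values of some listed genes are not reported here.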

Additional observations from a re-analysis of the deposited data

How the results depend on the processing

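The calls of Hdac6, Hdac7, Hdac8, Hdac11, Rcor2 and Sin3b held under all 14 alternatives that kept the threshold, and those of Hdac10, Mta1 and Brd2 did not. Members were 12 higher and 6 lower at an adjusted p under 0.05. Leaving out 1 library gave 4 to 10 higher and 2 to 4 lower members. With the replicate number as a block, 5 members were higher and 2 lower, and among members it changed only the calls of Brd2 and Mta1. The sign of some members that did not pass turned. Leaving out 1 library gave log2 fold changes from -0.14 to 0.01 for Hdac4, -0.01 to 0.05 for Kat2a, -0.42 to 0.14 for Kat6a, -0.00 to 0.06 for Kat7, -0.61 to 0.01 for Ep300 and -0.20 to 0.25 for Crebbp. Quantile normalization gave -0.04 for Kat2a, -0.05 for Kat7 and -0.03 for Chd4, and median centring 0.01 for Crebbp. All 140 alternative values of paralogue differences lay within 1 SD of those given. Leaving out 1 of 3 libraries cannot move a group mean by 1 SD of that group, so nothing is read from this. Kat6a minus Kat6b, for example, went from 0.02 to 0.32 without WT replicate 2. Over the combinations of a list with an alternative, counts of higher and of lower genes moved by over 1.5 times in 52 and 33. They stayed within that in 128 and 147. Counts on a list are small, so a single gene can move them that far. The causes were not tested. Without counts the precision set by depth is unknown, and 3 libraries per genotype limit all tests.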
